A study of Bos taurus with 43 samples.

Results

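The muscle enzymes that release glucose units from glycogen and carry them through glycolysis to lactate were followed in biceps brachii, a forelimb muscle, of 43 male cattle. The set holds 10 genes: PYGM, PFKM, ALDOA, TPI1, GAPDH, PGK1, PGAM2, ENO3, PKM and LDHA. They were found by gene name, by description and by the gene symbol behind the accession of each probe. This gave 12 of the 21475 gene probes of a single-colour bovine oligonucleotide array, 1 probe per gene and 3 for GAPDH. PFKM, ALDOA, PKM and the brightest GAPDH probe were matched through the description of a predicted transcript, the others through a RefSeq accession. All 12 probes passed the filter on dim probes, which kept 16354 probes, and all were well above background on 43 of 43 arrays.

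Each array held the RNA of 1 animal. The 4 positive animals (P21, P54, P56 and P57) were commercial beef cattle suspected of corticosteroid treatment, positive by thymus histology and with dexamethasone, a synthetic glucocorticoid, in their urine. The 21 unknown animals were commercial beef cattle too, and whether they had been treated is not known. Positive and unknown animals were 12 to 24 months old and mostly Charolais, Limousine or their crosses. The 5 cross-breed controls (K7, K8, K10, K11 and K12) were untreated Charolais by Limousine bulls of 18 months from earlier controlled experiments. The 13 Holstein controls were untreated animals of 13 to 18 months, also from earlier controlled experiments. Neither dose nor timing of a treatment is known for the positive animals, so that the group stands for a field finding and not for a controlled exposure. By a principal component analysis of these arrays the study split the unknown animals into 10 of group B, which also took the 4 positive animals, and 11 of group A, which also took the cross-breed controls. The 11 unknown animals of group A lay apart as group 2 (263, 265, 266, 269 and 270) and group 4 (36, 37, 38, 49, 51 and 58). Over all 43 arrays the study had placed animal 76 of group B in group 4 as well, and it is counted here in group B alone.

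In muscle, glycogen phosphorylase splits glycogen into glucose phosphate, and phosphorylase kinase switches it on when the fibre contracts or adrenaline arrives. Phosphofructokinase commits the sugar to glycolysis, aldolase and triosephosphate isomerase cut and sort the trioses, and the lower enzymes make ATP and pyruvate. Lactate dehydrogenase then reduces pyruvate to lactate, which keeps the pathway running without oxygen. Fast fibres are rich in these enzymes, and slow fibres lean more on oxidation of fat and pyruvate. Glucocorticoids are known for raising blood glucose and for wasting fast fibres.

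Several features of the arrays bear on the comparisons. Positive and cross-breed animals shared 0 slides, 0 scan days and 0 scanners, and the same held for the Holstein and cross-breed controls. Group and batch therefore cannot be told apart in either comparison. Positive animals were commercial cattle and the cross-breed controls came from experiments, so that group and origin cannot be told apart there either. On 5 arrays of group B the added spike-in RNAs were dim, with means of the 7 brightest of 8.83 (animal 29), 8.14 (39), 8.12 (52), 8.69 (61) and 7.36 (76) on the log2 scale before normalization. Animals 50 and 79, also of group B, had the highest and the lowest share of spots well above background, 97.29% and 40.21%.

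The sets also stood apart in genes that mark the position of a muscle along limb and body. HOXA9 had log2 signals of 1.98 to 4.22 in the positive animals, 1.77 to 5.74 in unknown group B and 2.64 to 5.44 in group 4. Group 2 had 10.98 to 11.37, the cross-breed controls 10.6 to 11.47 and the Holstein controls 10.3 to 11.67. The scanner software called HOXA9 well above background on 1 of 4, 3 of 10 and 4 of 6 arrays of the low sets, and on all arrays of the other sets. HOXC6 ran the other way, at 9.73 to 10.82 over the sets low in HOXA9, against 6.78 to 8.2 in group 2, 3.18 to 4.77 in the K animals and 4.1 to 5.89 among the Holsteins. TBX15, a transcription factor of limb muscle, had means of 8.6, 8.39 and 8.06 in the positive, group B and group 4 animals against 10.12, 10.31 and 9.97 in group 2, the cross-breed and the Holstein controls. The Y-linked gene ZFY lay between 2.84 and 4.53 in the 11 unknown animals of group A. It lay between 5.47 and 7.26 in the others, although all animals are labelled male. The scanner software detected ZFY in 5 of 6 animals of group 4 and in 4 of 5 of group 2. It did so in 9 of 10 animals of unknown group B and in all positive and control animals. For group B over group A the ZFY difference was 1.85 on the log2 scale. It was 0.51, under 2-fold, with normexp, another background correction. The part of these differences between sets in the results that follow was not tested.

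The widest spread among the 10 enzymes was that of PKM, the pyruvate kinase of muscle, which makes the last ATP of glycolysis. Its log2 signal was 12.88 in P21, 12.23 in P54, 12.66 in P56 and 13.43 in P57. In the cross-breed controls it was 15.59 in K7, 15.81 in K8, 15.11 in K10, 15.2 in K11 and 15.26 in K12. Every positive animal was below every cross-breed control. Unknown group B ran from 11.96 to 13.77 (median 12.98) and group 4 from 13.45 to 14.43 (median 14.14), so that these sets overlapped narrowly. Group 2 had 16.6 (263), 15.93 (265), 16.61 (266), 16.69 (269) and 16.85 (270). These 5 values were above those of all other animals. The Holstein controls, with 14.36 to 15.49 and a median of 15.02, overlapped both group 4 and the cross-breed controls.

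PYGM encodes the muscle glycogen phosphorylase, which takes glucose units off glycogen. Its log2 signal was 14.33 in P21, 13.6 in P54, 14.05 in P56 and 15.11 in P57. It was 16.12 in K7, 16.18 in K8, 15.98 in K10, 15.74 in K11 and 15.72 in K12, again without overlap. Group 2 lay in the range of the cross-breed controls or above it, with 16.31 (263), 15.88 (265), 16.23 (266), 16.19 (269) and 16.5 (270). Unknown group B held the lowest value of all, 12.7 in animal 61, and reached 15.17 in animal 29. Its range took in that of the positive animals and overlapped that of group 4 (14.52 to 15.32). The Holstein controls ran from 14.68 to 15.92 (median 15.25).

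LDHA encodes the lactate dehydrogenase subunit of fast muscle, which turns pyruvate into lactate. The positive animals had 14.3 (P21), 13.93 (P54), 14.34 (P56) and 14.88 (P57), and the cross-breed controls 16.39 (K7), 16.49 (K8), 16.1 (K10), 16.33 (K11) and 15.9 (K12). No values overlapped. The order of the set means was 14.35 in unknown group B, 14.36 in the positive animals, 14.98 in group 4, 15.92 in group 2, 16.24 in the cross-breed controls and 16.41 in the Holstein controls. The first 2 and the last 2 of these neighbours differed by less than their SDs (0.55 and 0.39, 0.24 and 0.32).

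PGK1 encodes phosphoglycerate kinase, the enzyme of the first ATP-making step. The positive animals had 14.32 (P21), 14.2 (P54), 14 (P56) and 14.18 (P57), and the cross-breed controls 15.4 (K7), 15.68 (K8), 15.19 (K10), 15.21 (K11) and 15.34 (K12). It was the enzyme that held unknown group B closest together, between 14.01 and 14.65, below group 4 (15.12 to 15.78). Group 2 was highest, at 16.47 (263), 15.81 (265), 16.67 (266), 16.75 (269) and 16.71 (270), and the Holstein controls (14.82 to 15.9) lay around the cross-breed controls.

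ALDOA, the aldolase of muscle, had another order of the sets. The positive animals had log2 signals of 17.96 (P21), 17.81 (P54), 18.0 (P56) and 17.98 (P57), above the cross-breed controls with 17.51 (K7), 17.39 (K8), 17.04 (K10), 17.32 (K11) and 16.77 (K12). The set means were 17.94 in the positive animals, 17.95 in unknown group B and 18.09 in the Holstein controls, against 17.2 in group 4, 17.24 in group 2 and 17.21 in the cross-breed controls. Unknown group B ran from 17.27 to 18.55. Its lowest value, in animal 76, is a lower limit, since ALDOA and the brightest GAPDH probe were saturated on that array. The next lowest, 17.59 in animal 61, lay above the cross-breed controls and group 2 and below the highest value of group 4 (17.62 in animal 58).

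**Figure D1:**
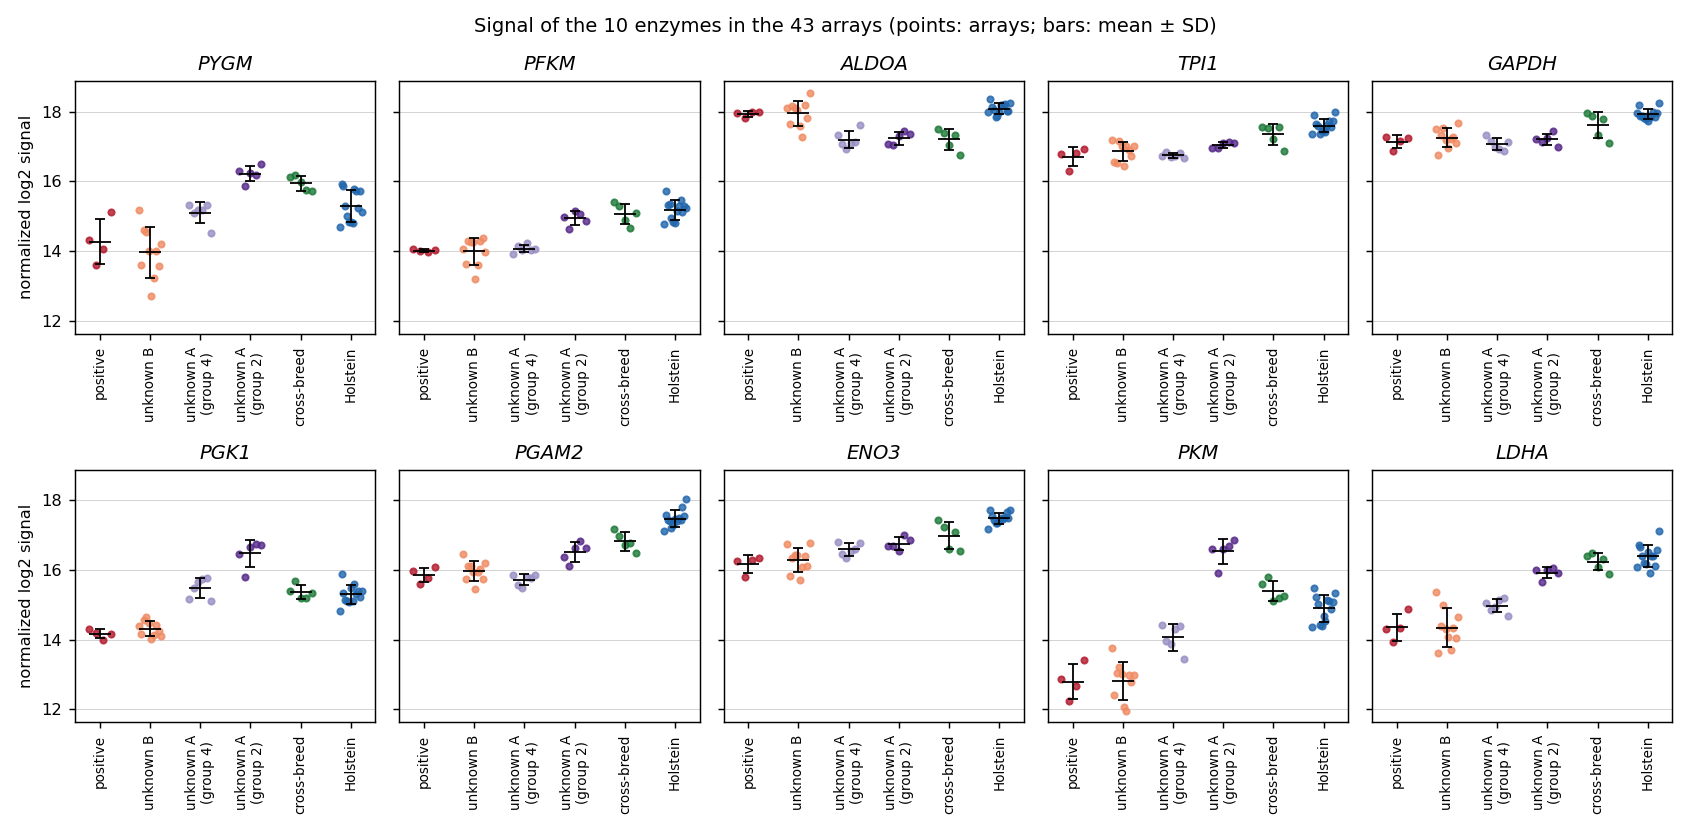
Normalized log2 signal of each of the 10 enzymes (vertical axis) in the 6 sets of animals (horizontal axis), with 1 point per array and the mean ± SD of each set as bars, GAPDH by its brightest probe. PKM runs from 11.96 to 16.85 with group 2 on top, and ALDOA is the one enzyme whose positive animals (17.81 to 18.0) sit above the cross-breed controls (16.77 to 17.51).

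PFKM, the phosphofructokinase of muscle, was nearly the same in the 4 positive animals (14.05, 13.99, 13.98 and 14.03 in P21, P54, P56 and P57). The cross-breed controls had 15.4 (K7), 15.28 (K8), 14.89 (K10), 14.65 (K11) and 15.1 (K12). Group 4 (13.93 to 14.22) was at the level of the positive animals, and group 2 (14.63 to 15.15) and the Holstein controls (14.79 to 15.73) at that of the cross-breed controls. TPI1, which interconverts the triose phosphates, had set means of 16.71 (positive), 16.86 (unknown group B), 16.75 (group 4), 17.05 (group 2), 17.36 (cross-breed) and 17.6 (Holstein). PGAM2, the phosphoglycerate mutase of muscle, had 15.87, 15.98, 15.72, 16.52, 16.83 and 17.48 in the same order. ENO3, the muscle enolase, had 16.17, 16.29, 16.6, 16.76, 16.99 and 17.49. In these 3 genes the Holstein controls had the highest mean. The same held for PFKM (15.18), ALDOA (18.09), LDHA (16.41) and the brightest GAPDH probe (17.93).

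The comparison of the positive animals with the cross-breed controls sets muscle of animals suspected of treatment against that of untreated beef cattle. A gene was called where limma gave an adjusted p (Benjamini-Hochberg over 16354 probes) under 0.05 and a change of at least 2-fold. Of the 10 enzymes, 5 were called lower and 0 higher. These were PKM, LDHA, PYGM, PGK1 and PFKM. Among all probes tested, 13.8% were called lower and 28.1% were called in either direction. The median log2 difference was -1.01 over the 10 enzymes and -0.03 over all probes.

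PKM fell by 2.60 on the log2 scale (6.04-fold, standard error 0.25, limma adjusted p = 1.92e-05). LDHA fell by 1.88 (3.68-fold, standard error 0.21, adjusted p = 5.06e-05) and PYGM by 1.68 (3.19-fold, standard error 0.27, adjusted p = 0.000557). PGK1 fell by 1.19 (2.28-fold, adjusted p = 0.000107). PFKM fell by 1.05 (2.07-fold, adjusted p = 0.000555) and dropped under 2-fold without K7 (-0.97) or K8 (-1). It was also under 2-fold with pairwise loess (-0.94), in which cyclic loess runs over each array pair, with quantile normalization (-0.98), 75th percentile scaling (-0.78) and normexp background correction (-0.84). PGK1 was under 2-fold with 75th percentile scaling (-0.87) and normexp (-0.99). These are the enzymes of glycogen breakdown, of the committing step and of the ATP- and lactate-making end.

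Lower but short of 2-fold were PGAM2 (log2 difference -0.96, adjusted p = 0.00118), ENO3 (-0.82, adjusted p = 0.0102) and TPI1 (-0.65, adjusted p = 0.0184). ALDOA was higher by 0.73 (adjusted p = 0.00495). It was lower (-0.54) with pairwise loess and called higher (1.26) with 75th percentile scaling. Over the alternatives TPI1 ran from -1.62 to -0.17, ENO3 from -1.61 to -0.37 and PGAM2 from -1.73 to -0.54. Their highest limma adjusted p values there were 0.56, 0.251 and 0.0599. In all, 8 enzymes were lower at adjusted p under 0.05 in the main fit, where 26.2% of all probes were. The ranges did not overlap for 7 enzymes that were lower and 1 that was higher, against 21.6% and 21.7% of all probes. In bulk muscle, fewer fibres of a type and less RNA per fibre cannot be told apart.

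The 3 GAPDH probes disagreed. Glyceraldehyde-3-phosphate dehydrogenase joins phosphate to the triose and makes NADH. The brightest probe, A_73_100172, which stands for the gene here, is described as GAPDH but belongs to a predicted transcript. It differed by -0.48 (adjusted p = 0.0745) between positive and cross-breed animals. The 2 probes of the RefSeq accession of GAPDH, printed as 6 spots each, were called lower, A_73_100878 by 1.26 (2.39-fold, adjusted p = 0.000518) and A_73_105495 by 1.73 (3.32-fold, adjusted p = 3.95e-05). With the RefSeq probe in place of the brightest, 6 of 10 enzymes were called, an alternative chosen after seeing the data. Over the 43 arrays both RefSeq probes had a correlation of 0.94 with each other and of 0.73 and 0.51 with the brightest probe, a description across arrays that share their batches.

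The positive animals could be set against animals of the same slides only in the unknown group. Slide 9 held P56, P57 and the unknown animals 50 and 81, and slide 10 held P21, P54 and the unknown animals 78 and 79, all of group B. PKM was 13.05, 12.99, 12.78 and 12.98 in animals 50, 78, 79 and 81, inside the range of the positive animals. PYGM was 14.6, 14, 13.57 and 14.19 in them, and LDHA 14.39, 14.33, 14.05 and 14.66. The study drew group B from these same arrays as the cluster that took the positive animals. Likeness of these animals to them is therefore no independent test. No enzyme was called with the slide as a block in limma, and 0 of 10 had an unadjusted p under 0.05. Among all probes 0% were called, and 1873 had an unadjusted p under 0.05.

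The differences on the same slides ran from -0.25 (ALDOA) to 0.18 (PYGM), with a smallest adjusted p of 0.582 and a median of -0.16 (0.02 over all probes). The 95% interval was -0.68 to 0.38 for PKM, -0.42 to 0.43 for LDHA and -0.46 to 0.83 for PYGM. These intervals leave out drops of the size found against the cross-breed controls. The 4 unknown animals have no known treatment and had been grouped with the positive animals by these same arrays. The signs were not stable, since with 75th percentile scaling the median was 0.11.

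Group B over group A is the division that the study drew from these same arrays. Its values describe that split and are no independent test, and it shares its positive and cross-breed animals with the first comparison. Of the 10 enzymes, 4 were called lower and 0 higher, where 10.1% of all probes were called lower and 23.4% in either direction. The groups were 14 and 16 animals, and shared 0 slides and 0 scan days. PKM fell by 2.44 (5.42-fold, standard error 0.31, limma adjusted p = 1.08e-07), PYGM by 1.67 (3.17-fold, adjusted p = 2.35e-07), PGK1 by 1.49 (2.8-fold, adjusted p = 7.49e-09) and LDHA by 1.32 (2.49-fold, adjusted p = 1.69e-06).

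The median over the 10 enzymes was -0.59, and -0.03 over all probes. PFKM (-0.65, adjusted p = 0.000756) and ENO3 (-0.52, adjusted p = 0.000419) were lower by less than 2-fold, and ALDOA was higher by 0.74 (adjusted p = 8.62e-07) with -0.01 under pairwise loess. PGK1 was the one enzyme whose groups did not overlap, with a highest value of 14.65 in group B and a lowest of 15.12 in group A. That held for 2.21% of all probes in the same direction. With 75th percentile scaling, LDHA (-0.99) left the called enzymes and ALDOA (1.26) entered them, giving 3 lower and 1 higher. Without the 5 animals with dim spike-ins 4 enzymes were called, and without animals 50 and 79, an alternative chosen after seeing the data, also 4. The shares of all probes called in these settings were 23.5%, 26% and 23.5%, in the order given. The brightest GAPDH probe differed by -0.07 (adjusted p = 0.643). In contrast, A_73_100878 was lower by 0.9 (adjusted p = 6.04e-06) and A_73_105495 was called lower, by 1.65 (adjusted p = 6.91e-07). The differences of ALDOA and of the brightest GAPDH probe include animal 76, on whose array both were saturated, and are not exact.

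Group 4 and group 2, both unknown animals of group A, were likewise drawn from the arrays and shared 1 slide and 1 scan day. All 10 enzymes had a lower mean in group 4, and 2 were called lower, where 5.63% of all probes were called lower and 13.7% in either direction. PKM fell by 2.46 (5.51-fold, standard error 0.22, limma adjusted p = 2.83e-05) and PYGM by 1.12 (2.17-fold, standard error 0.17, adjusted p = 0.000754). PYGM was under 2-fold with pairwise loess (-0.99) and normexp (-0.98). PGK1 (-0.99, limma adjusted p = 0.00402) and LDHA (-0.94, adjusted p = 0.000521) missed the fold limit with all animals. Both passed it without animal 265, at -1.16 and -1.01, which made 4 called, where 13.7% of all probes were called. PFKM (-0.87, adjusted p = 0.00053) and PGAM2 (-0.80, adjusted p = 0.00245) were lower too. ALDOA (-0.04), GAPDH (-0.14) and ENO3 (-0.16) had adjusted p above 0.05, and their signs changed with pairwise loess.

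The median was -0.83 over the enzymes and -0.07 over all probes. Ranges did not overlap for 7 enzymes, all lower in group 4, against 8.95% of all probes. On the shared scan day, with 2 animals of group 4 and 5 of group 2, 4 enzymes were called (chosen after seeing the data). In that fit 7.34% of all probes were called. There PGK1 differed by -1.34 and LDHA by -1.05. The GAPDH probe A_73_105495 was lower by 1.73 (adjusted p = 0.000212), while A_73_100878 differed by -0.68 (adjusted p = 0.00416).

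The Holstein over the cross-breed controls compare untreated animals of different breed. Of the 10 enzymes, 0 were called by limma, where 20.6% of all probes were called. An unadjusted p under 0.05 was found for 6 of the 10 and for 8997 of the 16354 probes. ALDOA was higher by 0.88 in the Holstein controls (adjusted p = 1.12e-05) with no overlap of the ranges (8.1% of all probes), PGAM2 by 0.65 (adjusted p = 0.00101) and ENO3 by 0.50 (adjusted p = 0.0056). PYGM was lower by 0.65 (adjusted p = 0.0171) and PKM by 0.49 (adjusted p = 0.0384). The median was 0.20, with 0.01 over all probes, and -0.15 with quantile normalization. With 75th percentile scaling ALDOA (1.37) and PGAM2 (1.04) were called higher, where 22.8% of all probes were called. Without normalization PYGM (-1.29) and PKM (-1.19) were called lower, where 52.5% of all probes were called. There the median of all probes also moved, to -1.04.

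**Figure D2:**
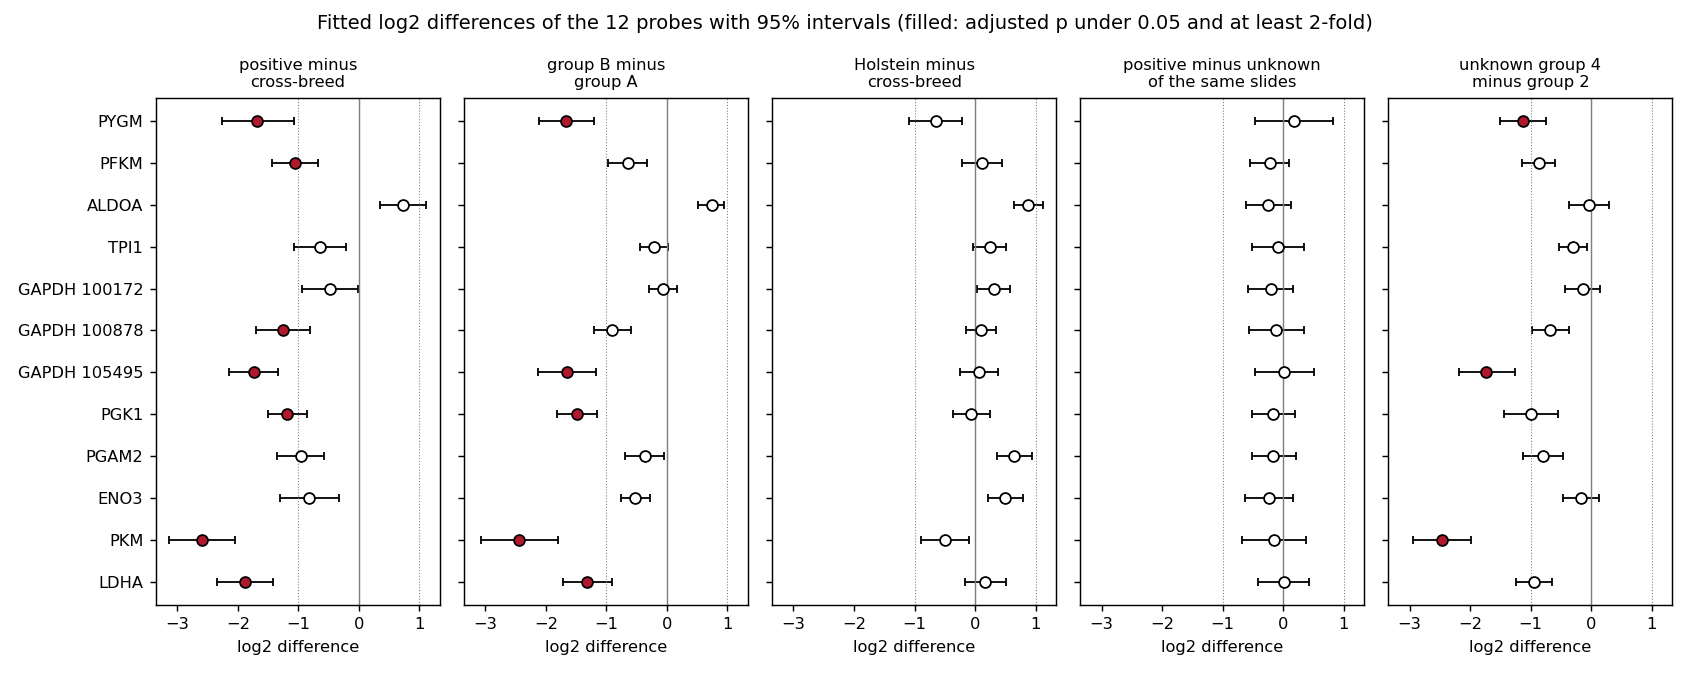
Fitted log2 differences (horizontal axis) of the 12 probes (vertical axis, the GAPDH probes by the last 6 digits of their names) in 5 comparisons, with 95% confidence intervals from limma; filled points mark adjusted p under 0.05 and at least 2-fold, dotted lines 2-fold. PKM lies between -2.60 and -2.44 in the 3 comparisons where it was called, and at -0.15 on the same slides.

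The other genes of the pathway are given as 4 lists. The share of all probes called in either direction, against which each list's calls can be set, was 28.1% in the positive over the cross-breed animals, 23.4% in group B over group A, 13.7% in group 4 over group 2 and 20.6% in the Holstein over the cross-breed controls. Of 16 genes of glycogen turnover tested, 6 were called lower and 0 higher in the positive over the cross-breed animals (median log2 difference -0.67), and 5 and 0 in group B over group A (-0.35). Group 4 over group 2 gave 5 lower and 2 higher (-0.45), the same slides gave 0 (median 0.02), and the Holstein controls 2 lower and 1 higher (-0.19). Phosphorylase kinase, which switches glycogen phosphorylase on, had 3 of its subunits among the lower calls.

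PHKG1, its catalytic subunit, fell by 3.13 in the positive animals (8.76-fold, standard error 0.18, limma adjusted p = 1.67e-06), by 1.91 in group B and by 1.51 in group 4, and also by 1.54 in the Holstein controls (adjusted p = 7.12e-05). PHKA1, the regulatory alpha subunit of muscle, fell by 2.48 (5.57-fold, adjusted p = 4.79e-05), 1.79 and 2.24 in the same comparisons. Its log2 signals were 11.89 (P21), 11.06 (P54), 11.91 (P56) and 11.64 (P57) against 14.45 (K7), 14.7 (K8), 14.04 (K10), 13.53 (K11) and 13.78 (K12). The positive animals were all below the controls by more than 1 log2 unit. PHKB, the beta subunit, fell by 2.23 (4.7-fold, adjusted p = 0.000104), 1.67 and 1.54. PHKG2, the catalytic subunit of liver and other tissues, was higher by 0.65 in the positive animals (adjusted p = 0.00178, under 2-fold) and was called higher in the Holstein controls (1.81, adjusted p = 0.0228), a call that was lost without normalization (0.87, adjusted p = 0.291).

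PPP1R3A, which holds protein phosphatase 1 on glycogen in muscle, fell by 1.28 (2.42-fold, adjusted p = 0.000134), 1.32 and 1.54. UGP2, which makes the UDP-glucose that glycogen is built from, fell by 1.16 (2.23-fold, adjusted p = 0.000259), 1.05 and 1.58. In the positive animals both were under 2-fold with pairwise loess (-0.82 and -0.65), and UGP2 also with 75th percentile scaling (-1). In group B, UGP2 was under 2-fold with pairwise loess, quantile normalization, 75th percentile scaling and normexp (-0.96 to -0.7). GYS1, the glycogen synthase of muscle, differed by 0.12 (adjusted p = 0.446) in the positive animals, by 0.44 in group B (adjusted p = 0.000141) and by 0.07 in group 4. The GYS1 values are those of its brighter probe, and its other probe is not given. EPM2A, a glycogen phosphatase, was well above background on 26 of 43 arrays, so that no fold is given. Its lower call in the positive animals was lost with 75th percentile scaling and normexp, and that in the Holstein controls with normexp. Called higher in group 4 were the branching enzyme GBE1 (1.33, adjusted p = 0.000494) and the phosphatase subunit PPP1R3C (1.45, adjusted p = 0.0028).

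Of 9 genes for glucose entry and hexose phosphates, 4 were called lower in the positive animals (median -0.88) and 3 in group B (-0.62), with 0 higher in both. In the Holstein controls 1 was called higher and 0 lower (-0.25). PFKFB4, which sets the level of an activator of phosphofructokinase, fell by 2.48 (5.58-fold, adjusted p = 0.000388) in the positive animals, 1.96 in group B and 4.03 in group 4 (16.4-fold, adjusted p = 1.15e-05). In the Holstein controls it was called higher, by 1.23 (adjusted p = 0.00456), and differed by 0.45 (adjusted p = 0.384) without normalization. FBP2, the fructose bisphosphatase of muscle, fell by 1.80 (adjusted p = 0.00806) in the positive animals and 1.17 in group B (-0.87 with 75th percentile scaling), and PFKFB1 by 1.18 (adjusted p = 0.00432) and 1.22. GPI, which turns glucose 6-phosphate into fructose 6-phosphate, fell by 1.09 (adjusted p = 0.000105) in the positive animals and was under 2-fold with pairwise loess (-0.97), 75th percentile scaling (-0.82) and normexp (-0.89). SLC2A4, the insulin-sensitive glucose transporter, was higher by 0.43 in the positive animals (adjusted p = 0.0453) and by 0.91 in group B (adjusted p = 2.32e-05), both under 2-fold. Group 4 over group 2 gave 3 higher and 1 lower (median 0.24), among them the transporter SLC2A1 (1.70, adjusted p = 0.00397) and the hexokinase HK1 (1.71, adjusted p = 0.000417). HK2, the main hexokinase of muscle, has no probe named on this array.

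Lactate dehydrogenase showed both of its subunits, in opposite directions. LDHB, the heart-type subunit common in oxidative fibres, had log2 signals of 17.04 (P21), 17.1 (P54), 16.92 (P56) and 16.86 (P57). The cross-breed controls had 16.05 (K7), 15.94 (K8), 15.23 (K10), 16.32 (K11) and 15.76 (K12), all lower. LDHB was higher by 1.12 in the positive animals (2.17-fold, standard error 0.21, limma adjusted p = 0.00129), by 1.29 in group B (adjusted p = 3.6e-05) and by 1.97 in group 4 (3.92-fold, adjusted p = 2.83e-05). With pairwise loess it was higher by 0.36 (adjusted p = 0.173) in the positive animals and by 0.76 (adjusted p = 0.0263) in group B, and without normalization by 0.32 (adjusted p = 0.542) in the positive animals.

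Of 15 isoforms of other tissues tested, 3 were called higher and 2 lower in the positive animals (median 0.22), 2 and 2 in group B (0.15), and 2 and 0 in group 4 (0.02), shares near those of all probes. The Holstein controls had 1 higher and 0 lower (0.17). PYGB, the brain-type phosphorylase, differed by 1.46 in the positive animals (adjusted p = 0.0665) and was called higher in group B (1.5, adjusted p = 0.00235) and in group 4 (1.51, adjusted p = 0.027). PGAM1, the mutase of other tissues, differed by 0.22, 0.15 and -0.17 (adjusted p = 0.388, 0.244 and 0.444). PKLR, LDHC, GAPDHS and HK3 were well above background on 20, 29, 15 and 42 of 43 arrays, and ENO1 on 35, and no fold is given for them.

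Of 18 genes for the fate of pyruvate and lactate, 2 were called in each direction in the positive animals (median 0.43), 1 higher and 2 lower in group B (0.17), 5 and 3 in group 4 (0.69), and 1 in each direction in the Holstein controls (0.01). Without normalization the first of these medians was -0.73, and that of the isoforms of other tissues -0.9. With pairwise loess the medians of both lists in group B were -0.12 and -0.04. GPD1, the gene called higher in group B, was under 2-fold there with pairwise loess (0.84). GPD2 was well above background on 37 of 43 arrays. Its lower calls in the positive animals, group B and group 4 were all lost with normexp. In group 4, PC and PDK1 were under 2-fold with normexp (-0.98 and 0.94), and PC also without normalization (-0.94). SLC16A3, the transporter by which fast fibres release lactate, was lower in the positive animals (adjusted p = 1.41e-05), group B (adjusted p = 3.45e-07) and group 4 (adjusted p = 0.000125), and is given without a fold because 1 array of 43 did not have it well above background. SLC16A1, the transporter common in oxidative fibres, was higher by 1.16 in the positive animals (adjusted p = 0.00406) and by 1.52 in group 4 (adjusted p = 0.0208), with -0.09 in the positive animals without normalization, 0.5 with pairwise loess and 0.9 with normexp. PDK4, a kinase that shuts pyruvate dehydrogenase off, was higher by 1.19 in the positive animals (adjusted p = 0.00918) and by 3.20 in the Holstein controls (9.16-fold, adjusted p = 5.3e-08), both over the cross-breed controls, and differed by 0.18 in the positive animals without normalization. On the same slides it differed by -1.22 (adjusted p = 0.293), and no gene of these 4 pathway lists was called there by limma.

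**Figure D3:**
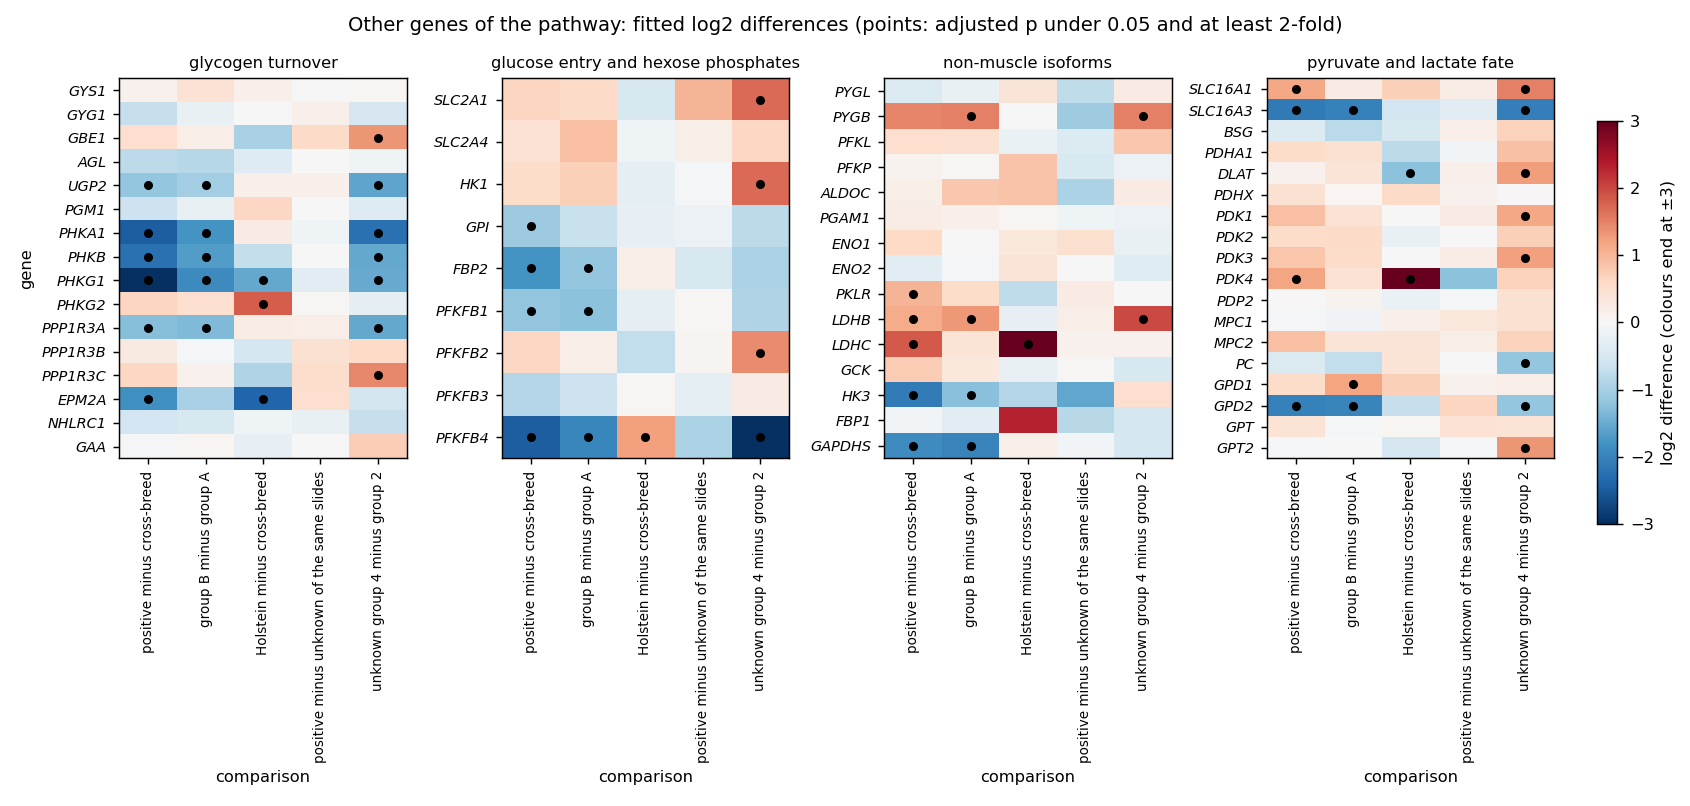
Fitted log2 differences (colour, ending at 3 in each direction) of the other pathway genes (vertical axis, 4 lists) in the 5 comparisons (horizontal axis), with a point where adjusted p was under 0.05 and the change at least 2-fold; genes near background carry no reliable fold. PHKA1, PHKB and PHKG1 are blue with a point in the positive, group B and group 4 columns (-3.13 to -1.51), and the column of the same slides has no point.

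Of 10 fast fibre genes tested, 8 were called lower in the positive animals (median log2 difference -3.33), 8 lower and 1 higher in group B (-2.28), and 7 lower and 1 higher in group 4 (-1.79), where 13.8%, 10.1% and 5.63% of all probes were called lower. In the Holstein controls 2 were called lower and 1 higher (0.53). CASQ1, the calsequestrin of fast fibres, was well above background on 25 of 43 arrays. It lost its lower call in the positive animals with 75th percentile scaling (adjusted p = 0.0979) and normexp, and in group B with normexp. TNNC2, the fast troponin C, lost its lower call in group 4 with pairwise loess (-1.51, adjusted p = 0.0724). ACTN3, the alpha-actinin of fast fibres, fell by 3.31 (9.91-fold, standard error 0.29, limma adjusted p = 1.24e-05), 3.13 and 3.47. ATP2A1, the calcium pump of fast fibres, fell by 5.12 (34.8-fold, adjusted p = 6.37e-05), 2.75 and 2.75. MYBPC2, the fast myosin-binding protein C, fell by 6.01 (64.6-fold, adjusted p = 0.000115), 3.71 and 2.66. TNNT3, the fast troponin T, fell by 2.72 (adjusted p = 0.00206), 2.61 and 3.44, and by 1.47 in the Holstein controls (adjusted p = 0.0124).

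The fast myosins did not move together. MYL1, the fast alkali light chain, was higher by 0.71 in the positive animals (adjusted p = 0.00481) and by 0.87 in group B (adjusted p = 6.77e-09), both under 2-fold, and differed by 0.06 in group 4 (adjusted p = 0.792). Its probe and that of MYL3 on the slow fibre list carry the same accession, so that the identity of both is uncertain. MYH1, the type 2x heavy chain, fell by 4.25 in the positive animals (standard error 0.99, adjusted p = 0.00475), by 1.90 in group B and by 1.03 in group 4, and only the first of these calls held with every scaling and with normexp. In group B it differed by -1.74 with pairwise loess (adjusted p = 0.0533), by -1.62 with 75th percentile scaling (adjusted p = 0.0983) and by -1.75 with normexp (adjusted p = 0.0626), and in group 4 by -0.74 with pairwise loess and -0.97 without normalization. MYH4, the type 2b heavy chain, differed by 0.27 (adjusted p = 0.346) in the positive animals and was higher by 2.72 in group B (adjusted p = 0.000129) and by 2.91 in group 4 (adjusted p = 8.85e-05). In the Holstein controls MYH1 was higher by 1.64 (adjusted p = 5.26e-08; 0.99 without normalization) and MYH4 lower by 1.57 (adjusted p = 0.00608).

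Of 10 slow fibre genes, 4 were called higher and 1 lower in the positive animals (median 0.74), 5 and 0 in group B (0.95), 4 and 0 in group 4 (0.82), and 1 and 3 in the Holstein controls (0.27). With pairwise loess the positive animals had 1 higher and 2 lower (median -0.04), with quantile normalization 1 and 1 (0.5) and without normalization 1 and 3 (0.11). In group B pairwise loess gave 3 higher and 0 lower (0.52). TNNT1, the slow troponin T, was higher by 1.11 in the positive animals (adjusted p = 0.000297) and by 1.97 in group B (adjusted p = 5.12e-09), and MYH7, the slow heavy chain, by 0.99 (adjusted p = 0.00296) and 1.21 (adjusted p = 1.12e-09). In the positive animals TNNT1 differed by 0.10 with pairwise loess, 0.88 with quantile normalization and 0.38 without normalization. In group B MYH7 was under 2-fold with pairwise loess (0.47) and quantile normalization (0.94), and MYL2, a slow light chain, with pairwise loess (0.77). General muscle genes had a median of -0.16 in the positive animals, with 1 of 9 called in each direction. CKM, the muscle creatine kinase, differed by -0.51 (adjusted p = 0.0505), and ACTA1, the skeletal actin, was higher by 1.41 (adjusted p = 2e-04) and differed by 0.45 (adjusted p = 0.0845) with pairwise loess and 0.68 (adjusted p = 0.19) without normalization. The log2 of the summed signal of the 9 muscle genes lay between 19.34 and 20.42 on all 43 arrays, with myoglobin (MB) the brightest. On the same slides none of the fibre or muscle genes was called, and the fast fibre median was -0.61.

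**Figure D4:**
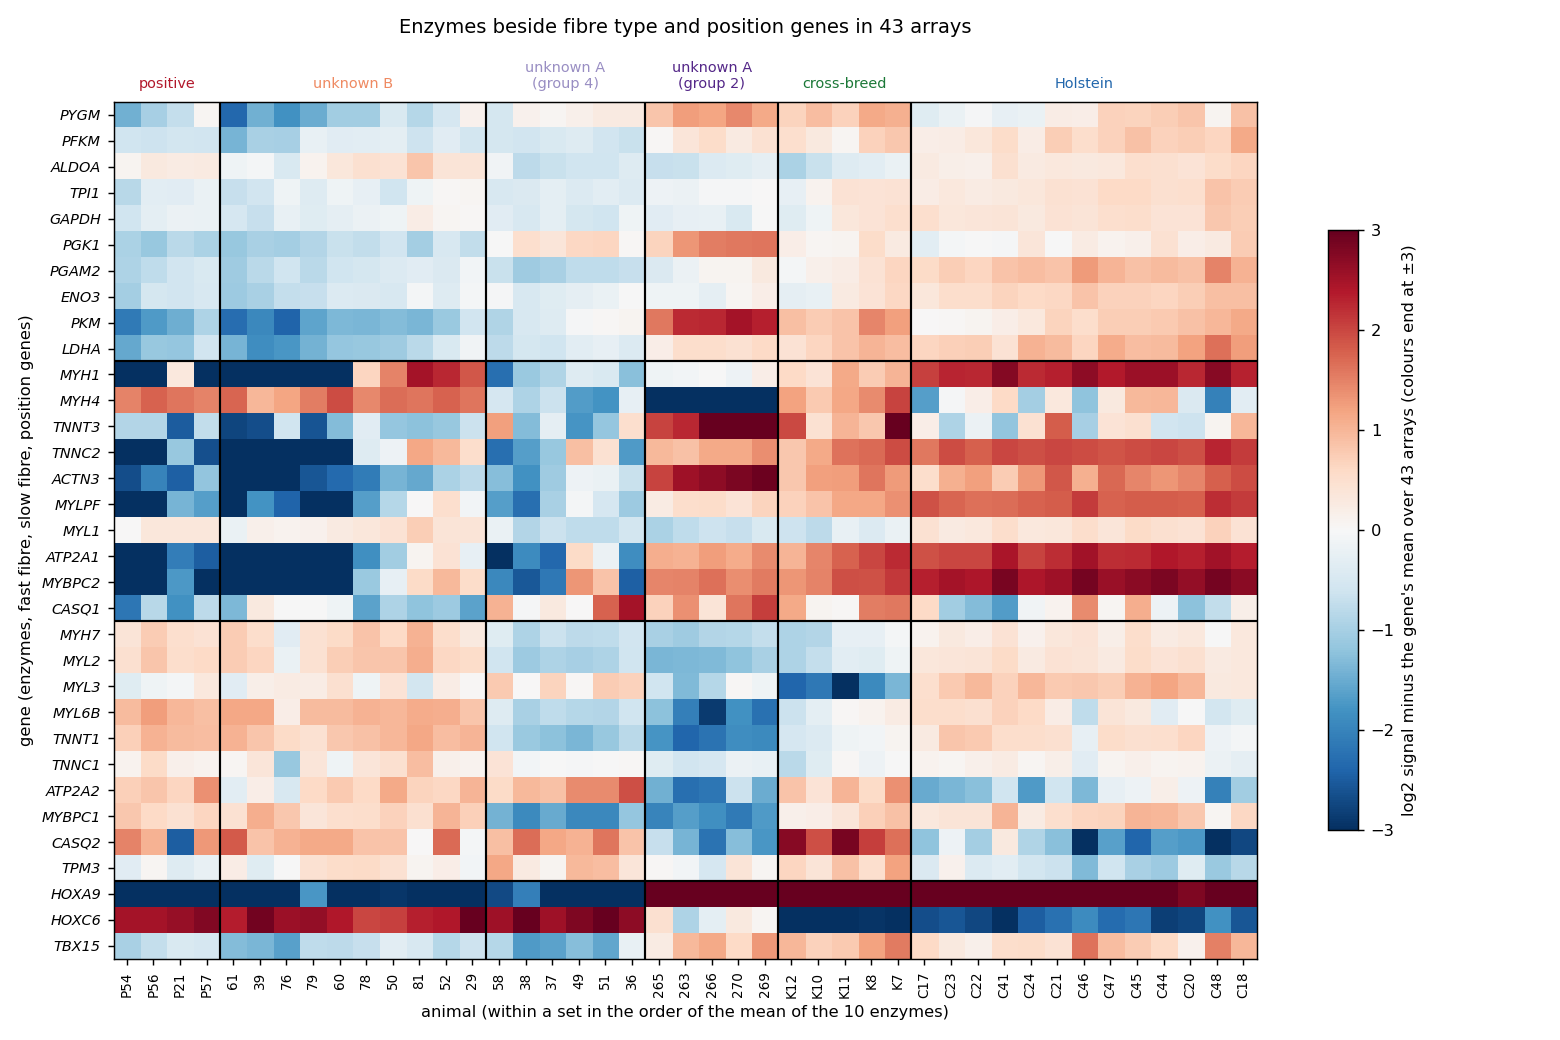
Log2 signal minus the mean of each gene over the 43 arrays (colour, ending at 3 in each direction) for enzymes, fast fibre, slow fibre and position genes (vertical axis) in each animal (horizontal axis, 6 sets). In group B, animals 61, 39, 76 and 79 have the lowest enzyme means and 61, 39, 79 and 60 the lowest fast fibre means, and HOXA9 divides the positive, group B and group 4 animals (1.77 to 5.74) from all others (10.3 to 11.67).

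The mean of the 10 enzymes, each centred over the 43 arrays, ran from -1.21 to -0.15 in unknown group B, with animal 61 lowest and animal 29 highest. The mean of the fast fibre genes in that set ran from -3.21, also in animal 61, to 0.41 in animal 52. P54 was lowest in both among the positive animals (-0.99 and -3.01), and 265 in group 2 (0.16 and 0.36). In the other sets different animals were lowest in enzymes and in fast fibre genes, 58 and 38 in group 4, K12 and K10 among the cross-breed and C17 and C23 among the Holstein controls. The slow fibre mean separated groups 2 and 4 without overlap, at -1.54 to -0.95 and -0.31 to 0.05. The arrays with dim spike-ins lay at both ends of group B in the enzyme mean, with -0.15 (29), -1.03 (39), -0.32 (52), -1.21 (61) and -1.01 (76).

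**Figure D5:**
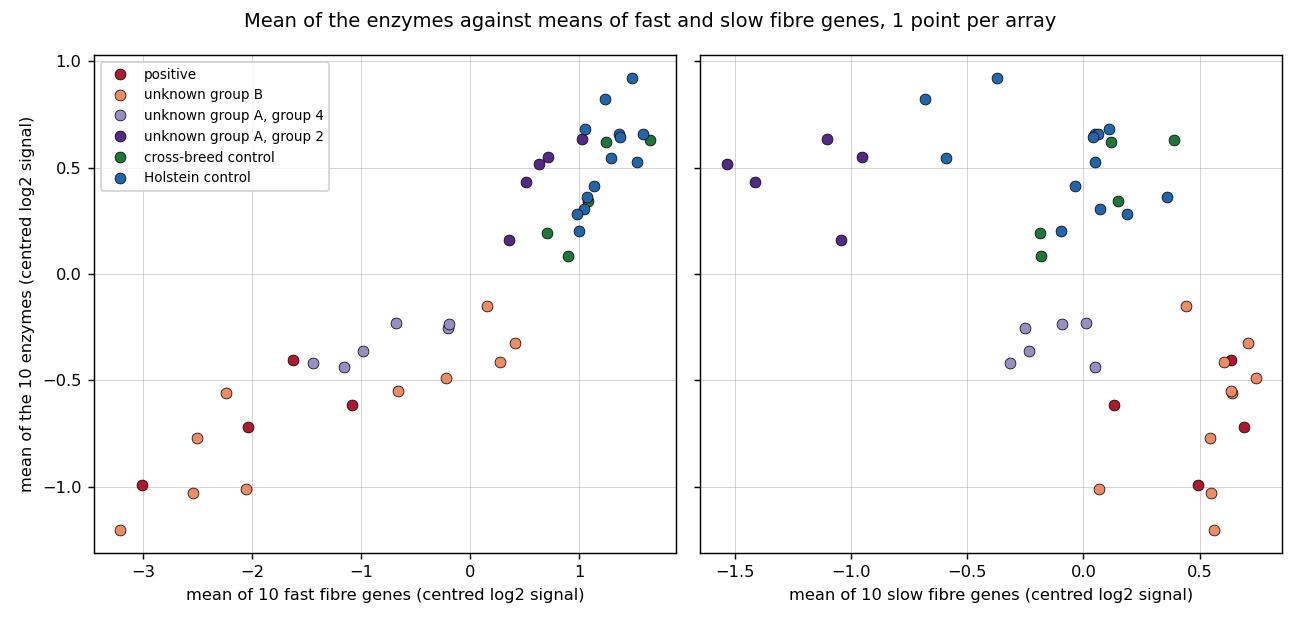
Mean of the 10 enzymes (vertical axis, centred log2 signal) against the means of 10 fast (left) and 10 slow (right) fibre genes, 1 point per array and coloured by set. Positive and group B animals have enzyme means of -1.21 to -0.15 and fast fibre means of -3.21 to 0.41, and the Holstein controls have enzyme means of 0.2 to 0.92.

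Markers of other cell types were followed as lists too, against the same shares of all probes. Of 5 adipocyte genes tested, 4 were called higher in the positive animals and 3 in the Holstein controls, both over the cross-breed controls. FABP4, a fatty acid carrier of fat cells, was called in both (adjusted p = 0.000261 and 2.44e-05) and is given without a fold, since 42 of 43 arrays had it well above background. ADIPOQ, well above background on 26 of 43 arrays, was not called with pairwise loess (adjusted p = 0.142) or at 2-fold with normexp in the positive animals, nor in the Holstein controls without normalization (adjusted p = 0.245) or with normexp. LPL differed by 0.66 (adjusted p = 0.205) in the positive animals without normalization. The log2 of the summed signal of the 6 adipocyte genes with a probe, of which LPL was the brightest, was 13.75 ± 0.13 (SD, n = 4) in the positive animals, 12.07 ± 0.36 (SD, n = 5) in the cross-breed and 13.09 ± 0.4 (SD, n = 13) in the Holstein controls. Group B over group A gave 3 adipocyte genes higher and group 4 over group 2 gave 2, of which ADIPOQ was lost with normexp in both and with 75th percentile scaling in the second.

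Of 6 endothelial genes, 3 were called higher in the positive animals (median 0.93), 2 in group B (0.63) and 4 in group 4 (1.93), among them the vessel marker VWF by 1.55 (adjusted p = 0.000995), 1.49 (adjusted p = 0.000366) and 2.67 (adjusted p = 3.3e-05). Without normalization the first of these medians was -0.26, and none of the 3 was called (VWF 0.36, KDR -0.18 and TEK 0.38). With pairwise loess KDR (0.31, adjusted p = 0.285) and TEK (0.87) left the calls in the positive animals, and KDR also with normexp (0.76). In group B TEK was under 2-fold with pairwise loess (0.93) and without normalization (0.98). Of 6 fibroblast genes, 3 were called lower in the positive animals (median -0.97), and 1 in group B and 2 in group 4. COL3A1, a collagen chain and the one called in group B, was not called there with pairwise loess (-0.75, adjusted p = 0.145), quantile normalization (-0.98), 75th percentile scaling (-0.96) or normexp (-0.79, adjusted p = 0.0857), nor in the positive animals with pairwise loess (adjusted p = 0.0704) or normexp (adjusted p = 0.0826). Of 7 leukocyte genes, 0 were called in the positive animals and in group B, and 1 was lower in group 4. Both erythroid genes tested were called higher in the positive animals. However, HBB, well above background on 35 of 43 arrays, was called lower with pairwise loess (adjusted p = 0.00676). It was not called with quantile normalization, without normalization or with normexp, and HBA2 was not called without normalization. In group B HBA2 was called higher (1.28), and was under 2-fold without normalization (0.79) and with normexp (0.89). In the Holstein over the cross-breed controls 3 fibroblast genes (median 1.25), 2 leukocyte genes (0.52) and the erythroid gene HBA2 were called higher, and no endothelial gene was called by limma (-0.24). Without normalization COL3A1, both leukocyte genes and HBA2 were not called there. The part of these cell types in the enzyme signals was not tested.

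Across the 43 arrays, 42 of the 45 pairs of enzymes had a Pearson's r above 0, with a lowest r of -0.43 (ALDOA and PGK1), a median of 0.66 and a highest of 0.94. With each set centred on its own mean, all 45 pairs were above 0, from 0.18 to 0.89 with a median of 0.62. PYGM and PKM had 0.94 over all arrays and 0.89 within sets. ALDOA had an r of 0.12 with the mean of the other enzymes over all arrays and 0.70 within sets. Arrays of a set share slides, scan days and normalization, and the values are a description. The SD over the 43 arrays was 1.32 for PKM, 0.97 for LDHA and 0.92 for PYGM, and 0.41 for GAPDH and 0.42 for TPI1.

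The named probes outside the lists whose signal was most like the mean of the enzymes over the 43 arrays were AK1 (r = 0.94, and 0.73 within sets), SLN (0.91 and 0.61), AMPD1 (0.88 and 0.23), TPM1 (0.88 and 0.63) and CCDC6 (0.87 and 0.61). AK1, adenylate kinase, and AMPD1, the AMP deaminase of muscle, handle adenine nucleotides when ATP is used fast. SLN encodes sarcolipin, a small regulator of the calcium pump, and TPM1 a tropomyosin of the thin filament.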

How the data were processed

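Muscle RNA of 43 animals was hybridized, and the authors deposited, for 44407 spots per array, the background-corrected intensity from Agilent's Feature Extraction software. Their log2 values were brought together by cyclic loess (limma 3.58.1, R 4.3.3) and averaged over the spots of a probe without outlier spots. Probes under a log2 signal of 4 on at least 30 arrays were left out. The brightest probe stood for a gene. GYS1, PHKB and MYH1 had a further probe each, whose values are not given. Differences were fitted with lmFit and eBayes on the arrays of both groups only, on the same slides with slide as a block, and were tested on simulated data first. The 10 enzymes were always named. Other pathway and fibre genes were named by the size of their calls, at most 8 per list and comparison, beside 15 fixed genes. The members and lists were chosen with earlier results of these data known. The p-values measure the spread between animals. Precision is limited by the number of arrays, which give no read depth. 0 columns of other samples were present. Alternatives were other normalizations, background correction, filters, blocks, left-out animals, the deposited value table of the authors (normalized intensities, taken to log2) and SAM. 1 gene of the pathway lists is not reported here. Figures were drawn with matplotlib 3.10.9.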

Additional observations from a re-analysis of the deposited data

Results flagged for a closer look

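In 3 of 60 groups of animals tested over the 12 probes, 1 animal lay far from the others of its set, where chance gives about 1 in 20. PYGM was 14.52 on the log2 scale in animal 58 of group 4 and 15.1 to 15.32 in the other 5 animals. ENO3 was 15.8 in the positive animal P54 and 16.25 to 16.34 in the other 3. PKM was 15.93 in animal 265 of group 2 and 16.6 to 16.85 in the other 4. Each of the 3 was the lowest of its set.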

How the results depend on the processing

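The alternatives gave 990 values of single enzymes, of which 11 lost a call, 34 gained one and 5 with an adjusted p under 0.05 as reported changed sign. The other 940 stayed on their side of the call thresholds. That count includes settings that could move GAPDH alone, by the mean of its probes or by its RefSeq probe. It also includes filters that left the fitted differences unchanged. PKM, LDHA and PYGM were called lower in the positive over the cross-breed animals under every alternative run. These 5 changes of sign were ALDOA with pairwise loess in the positive animals (-0.54) and in group B (-0.01), PGAM2 in group B with 75th percentile scaling (0.04), ENO3 in the Holstein controls without normalization (0) and TPI1 in group 4 with pairwise loess (0.22). Values with an adjusted p above 0.05 also changed sign, such as GAPDH (0.43) and TPI1 (0.25) in group B and 8 enzymes on the same slides, all with 75th percentile scaling. The cause was not tested.

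In the positive over the cross-breed animals, 8 enzymes were called with pairwise loess (median -1.6), where 39.9% of all probes were called. Without normalization 9 were called (median -1.85, all probes -1.08), where 60.4% of all probes were. The median was -0.66 with 75th percentile scaling and -0.74 with normexp, each with 1 higher and 3 lower calls. Of all probes, 28.3% and 8.31% were called with these settings. Leaving out 1 animal gave 4 to 6 calls and medians of -1.07 to -0.92, with 26.6% to 28.5% of all probes called. For the Holstein controls, 75th percentile scaling gave 2 calls (median 0.58) and no normalization 2 (-0.34). Of all probes, 22.8% and 52.5% were called with these settings. Quantile normalization gave a median of -0.15. Leaving out a cross-breed animal gave 0 calls and medians of 0.13 to 0.26, with 19.3% to 20.2% of all probes called. On the same slides the median was 0.11 with 75th percentile scaling and 0.05 without normalization, and -0.23 to -0.10 without 1 animal. In group 4 over group 2, 1 enzyme was called with pairwise loess (median -0.57) and 1 with normexp (-0.69). With 75th percentile scaling, with scan day as a random block and within the shared scan day, 4 each were called. The shares of all probes called in these settings were 14.2%, 5.03%, 13.6%, 10.9% and 7.34%, in the order given. Leaving out 1 animal of group 2 gave 2 to 4 calls and medians of -0.92 to -0.78, with 12.3% to 13.7% of all probes called. In group B over group A, 4 or 5 enzymes were called and the median ran from -0.91 to -0.24. The share of all probes called there ran from 5.14% with normexp to 31.4% with pairwise loess.

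With normexp, 8.31% of all probes were called in the positive animals, 5.14% in group B, 8.49% in the Holstein controls and 5.03% in group 4. No paired analysis was possible because each array held a different animal. The replicate numbers are animal numbers and pair no animals between groups.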
